A study of Mus musculus with 14 samples.

Results

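The annexin and galectin genes described here are 10 genes chosen by symbol, Anxa1 to Anxa7 with Lgals1, Lgals3 and Lgals8, in primary mouse glioblastomas. The platform annotation gave them 18 probes of 45281 on the array, and 14 of these probes, standing for 9 of the genes, passed the detection filter (detection p under 0.05 on at least 3 arrays). They were tested among 11786 genes in all. Type 1 tumours arose in mice with a tamoxifen-inducible Cre under the Nestin promoter (Nestin-CreERT2) and Type 2 tumours in mice with one under the NG2 promoter (NG2-CreERTM). In mice of both types, all of mixed genetic background, the targets of Cre included floxed Trp53 on both alleles, floxed Nf1 on 1 allele and a tdTomato reporter, Rosa-lsl-tdTom. Tamoxifen was given once by gavage at 6 to 8 weeks of age, at 10 mg for each 20 g of mouse, and the mice were then kept until they showed symptoms. Total RNA of 7 Type 1 and 7 Type 2 tumours was hybridised, 1 tumour per array, in 2 batches with 3 Type 1 and 4 Type 2 tumours in batch 1 and 4 Type 1 and 3 Type 2 tumours in batch 2. Each promoter defines where recombination could begin and not which cells a grown tumour holds, and the RNA comes from whole tumour tissue.

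Annexins are cytosolic proteins that bind acidic membrane lipids in the presence of calcium and take part in membrane traffic, membrane repair and contacts between membrane and actin. Galectins are small lectins that bind beta-galactoside sugars on glycoproteins, outside the cell or on the inner face of damaged vesicles. In human glioblastoma, several members of both families are known as markers of mesenchymal tumours and are also made by macrophages, vessels and reactive astrocytes.

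Each array detected between 19299 and 20868 probes. The glial genes Gfap, Olig2 and Sox10 were detected in all 14 tumours. The arrays lay on 5 chips that each held 1 type, so type and chip cannot be told apart within a batch. The correlation among arrays of 1 chip, estimated over all genes, was 0.015, and with 5 chips it does not bound chip effects closely. Type 1 replicate 1 and Type 2 replicate 5 were the tumours highest in choroid plexus genes. Their means were 10.10 and 8.06, against at most 6.75 in the other tumours. Results of the members, S100b, S100a10, Lgals3bp and Mcam are given without this pair where their call changes. All levels below are normalized log2 signals, all differences are Type 1 minus Type 2 on that scale from a limma fit with batch as a term, and a gene was called at an adjusted p under 0.05 over all genes. Levels of different genes are not compared, since probes differ in brightness.

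Anxa2 and Anxa4 were called, both lower in Type 1, and 7 of the 9 tested members were not called. Over all genes 2.32% were called lower in Type 1 and 4.64% in either direction. The types overlapped for each of the 9 members, while 1.23% of all genes did not overlap, 0.602% with Type 1 lower. Anxa2 encodes annexin A2, which pairs with the S100 protein S100a10 at the plasma membrane and binds plasminogen and tissue plasminogen activator there. Anxa4 encodes annexin A4, an annexin abundant in epithelia. In RNA from whole tumours, fewer cells that express a gene and less RNA per cell cannot be told apart.

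The 250 bases upstream of the start sites of these 2 called genes are shown because they are the members whose level differed between the types. Sequences are from RefSeq (GRCm38.p6), 5′ to 3′ on the strand of the gene, with matches to 4 motifs, searched on both strands, in capitals. The AP-1 motif, bound by Fos and Jun proteins, was spelled TGANTCA. The GC box, bound by Sp proteins, was spelled GGGCGG. The TATA box, which places the start of transcription, was spelled TATAAA, and the NF-kappaB site is given by name only.
Anxa2, chr9:69453433-69453682, plus strand: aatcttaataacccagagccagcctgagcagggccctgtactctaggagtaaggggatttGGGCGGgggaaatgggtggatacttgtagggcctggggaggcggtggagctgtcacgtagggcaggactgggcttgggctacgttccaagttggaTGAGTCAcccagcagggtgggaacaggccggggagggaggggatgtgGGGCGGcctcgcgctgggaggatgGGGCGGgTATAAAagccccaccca
Anxa4, chr6:86793585-86793834, minus strand: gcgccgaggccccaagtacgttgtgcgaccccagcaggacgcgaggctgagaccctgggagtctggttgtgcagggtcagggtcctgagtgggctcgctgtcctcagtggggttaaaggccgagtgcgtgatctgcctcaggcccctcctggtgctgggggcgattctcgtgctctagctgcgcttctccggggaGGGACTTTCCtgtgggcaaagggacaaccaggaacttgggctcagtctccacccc
The Anxa2 window held 1 AP-1 match beginning at -95 from the start site, GC boxes at -190, -48 and -24, and a TATA box at -17. These matches did not overlap. Of 32851 promoter windows of this length, 6.75% held the AP-1 letters, 32.7% a GC box and 12.4% the TATA letters. The Anxa4 window held 1 NF-kappaB match at -55, which 4.11% of windows held, and none of the other 3. A second annotated Anxa4 start site, upstream window chr6:86775115-86775364, held none of the 4. Neither the Anxa2 window nor either Anxa4 window matched a TEAD site (GGAATG) or a STAT site (TTCNNNGAA), which 12.6% and 7.02% of windows held. A match is a run of letters and was not tested for binding.

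Anxa2 ranged over 10.87, 11.72 and 12.61 (lowest, median and highest) in Type 1 tumours and over 12.42, 12.82 and 13.87 in Type 2 tumours. Of the Type 1 tumours 6 of 7 lay below every Type 2 tumour, and the types overlapped through Type 1 replicate 1. The means were 11.68 ± 0.61 (SD) in the 7 Type 1 tumours and 13.00 ± 0.51 (SD) in the 7 Type 2 tumours. Anxa2 differed by -1.25 ± 0.27 (SE; 95% confidence interval -1.82 to -0.69; limma adjusted p = 0.0200), or 2.39-fold higher in Type 2. A second, dimmer Anxa2 probe (ILMN_1233117) was detected in 4 of the 7 Type 1 and all 7 Type 2 tumours and gave -0.84 ± 0.17 (SE; adjusted p = 0.0179 by limma over 18430 probes), and it followed the brighter probe over the tumours at Pearson r = 0.62 and Spearman rho = 0.76 (given as a description, n = 14). Within batches Anxa2 differed by -1.07 in batch 1 and -1.44 in batch 2, with neither batch passing alone (limma adjusted p = 0.212 and 0.0623). Without Type 1 replicate 2 the call was lost (-1.15, adjusted p = 0.0554), and leaving out any of the other 13 tumours kept it.

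Anxa4 ranged over 5.81, 7.62 and 8.58 in Type 1 tumours and over 8.14, 9.12 and 9.87 in Type 2 tumours. Type 1 replicate 4 was the lowest, and 6 of 7 Type 1 tumours lay below every Type 2 tumour. The means were 7.48 ± 0.91 (SD) in the 7 Type 1 tumours and 9.02 ± 0.70 (SD) in the 7 Type 2 tumours. The difference of -1.51 ± 0.41 (SE; 95% confidence interval -2.38 to -0.64), or 2.85-fold higher in Type 2, lay just inside the threshold (limma adjusted p = 0.0496). Without any 1 of 11 of the 14 tumours the call was lost, with differences between -1.73 and -1.26 over all 14 and adjusted p up to 0.117 (without Type 1 replicate 2). It was also lost without the pair high in choroid plexus genes (-1.71, adjusted p = 0.103) and when arrays of a chip were treated as correlated (-1.51, adjusted p = 0.0571). A second Anxa4 probe (ILMN_2772410) was detected in 4 of the 7 Type 1 and 6 of the 7 Type 2 tumours, and its -1.09 ± 0.38 (SE) did not pass (adjusted p = 0.121 by limma over all probes), and ILMN_2552516, also of Anxa4, was detected on no array.

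**Figure D1:**
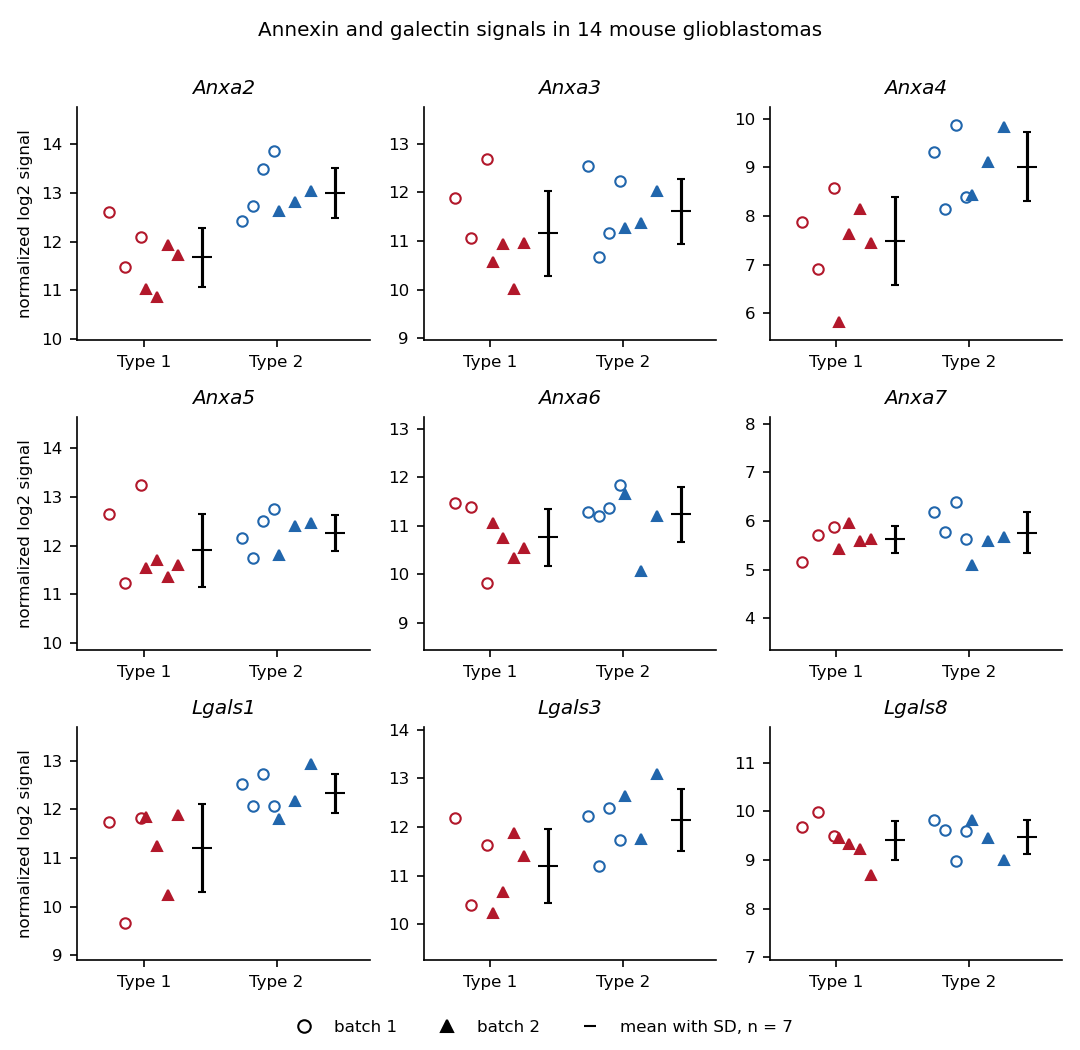
Normalized log2 signal of the 9 tested members (vertical axes, all of the same span) in each Type 1 (left, red) and Type 2 (right, blue) tumour, at the brightest detected probe of the gene. Open circles are batch 1, filled triangles batch 2, and black bars the mean with SD of 7 tumours. Anxa2 and Anxa4 lie mostly lower in Type 1, while Anxa7 and Lgals8 have nearly level means.

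The remaining annexins were not called. Anxa1 encodes annexin A1, an anti-inflammatory protein that acts through formyl peptide receptors. Its probe was above background in 0 of the 7 Type 1 and 1 of the 7 Type 2 tumours (Type 2 replicate 7), so the gene was not well above background and was not tested. Anxa5 encodes annexin A5, the protein used to stain phosphatidylserine on dying cells. It ranged over 11.23, 11.60 and 13.25 in Type 1 tumours and over 11.75, 12.40 and 12.76 in Type 2 tumours. The highest value of all 14 was in Type 1 replicate 3, although 5 of 7 Type 1 tumours lay below every Type 2 tumour. The Anxa5 difference was -0.29 ± 0.29 (SE; 95% confidence interval -0.90 to 0.32; limma adjusted p = 0.603).

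Anxa3 was at 10.02, 10.96 and 12.69 in Type 1 tumours and 10.67, 11.38 and 12.54 in Type 2 tumours, also highest in Type 1 replicate 3. For Anxa3 2 of 7 Type 1 tumours lay below every Type 2 tumour. Its difference was -0.35 ± 0.35 (SE; 95% confidence interval -1.11 to 0.41; limma adjusted p = 0.618). The other Anxa3 probe gave -0.28 ± 0.34 (SE) and followed the brighter one over the tumours at Pearson r = 0.99 and Spearman rho = 0.97 (n = 14). Anxa6 encodes annexin A6, which is built of a tandem pair of annexin cores. It was at 9.83, 10.76 and 11.46 in Type 1 tumours and at 10.08, 11.28 and 11.84 in Type 2 tumours, which differed by -0.42 ± 0.29 (SE; limma adjusted p = 0.427). The dimmer tested Anxa6 probe (ILMN_1241363) had the opposite sign, 0.17 ± 0.39 (SE; adjusted p = 0.846), so its probes gave no common direction. Anxa7 encodes synexin, an annexin that promotes granule fusion in secretory cells. At its tested probe (ILMN_1246887) it was near the floor of the array. The level there was 5.62 ± 0.27 (SD) in the 7 Type 1 tumours and 5.76 ± 0.42 (SD) in the 7 Type 2 tumours. The difference was -0.11 ± 0.19 (SE; limma adjusted p = 0.795), and this probe was detected on 6 of 7 arrays of each type. A second Anxa7 probe (ILMN_2617956) was detected on no array, so the detection of Anxa7 rests on 1 of its probes. A further Anxa6 probe (ILMN_1256492) was also detected on no array.

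Of the galectins none was called, though Lgals1 and Lgals3 lay close to the called annexins in size. Lgals1 encodes galectin-1, a secreted dimeric lectin known to bind T cells and endothelial cells. It ranged over 9.65, 11.74 and 11.89 in Type 1 tumours and over 11.80, 12.17 and 12.93 in Type 2 tumours. Type 1 replicates 2 and 6 were the lowest, 4 of 7 Type 1 tumours lay below every Type 2 tumour, and 6 of 7 Type 2 tumours lay above every Type 1 tumour. The difference was -1.14 ± 0.36 (SE; 95% confidence interval -1.90 to -0.37), or 2.20-fold higher in Type 2, and its limma adjusted p was 0.0811 (0.00647 before adjustment). In no setting examined did it pass.

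Lgals3 encodes galectin-3, a lectin with a long flexible tail that is made by activated macrophages and gathers on damaged lysosomes. It was at 10.22, 11.40 and 12.19 in Type 1 tumours and at 11.20, 12.22 and 13.09 in Type 2 tumours, with wide overlap between the types. The difference was -0.96 ± 0.36 (SE; 95% confidence interval -1.73 to -0.20) and missed the threshold (limma adjusted p = 0.136, with 0.0174 before adjustment). Lgals8 encodes galectin-8, a lectin with a pair of sugar-binding domains that marks damaged vesicles. It was at 8.69, 9.46 and 9.98 in Type 1 tumours and at 8.99, 9.59 and 9.83 in Type 2 tumours, which differed by -0.02 ± 0.20 (SE; 95% confidence interval -0.44 to 0.40; limma adjusted p = 0.973). A second Lgals8 probe (ILMN_2828677) differed by -0.33 ± 0.15 (SE; adjusted p = 0.219; unadjusted p = 0.0426), and the probes correlated over the tumours at only r = 0.34 (rho = 0.45, n = 14). A further probe, annotated to both Lgals8 and another gene, was left out and was detected on no array.

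Read together, all 9 tested members had a difference below 0, with a median of -0.42 against -0.0055 over all genes, and 50.6% of all genes had a difference below 0. At unadjusted p under 0.05, 4 of 9 were lower in Type 1 (Anxa2, Anxa4, Lgals1 and Lgals3), and 10.9% of all genes were, with 21.8% passing in either direction. Over probes, 3 of 14 were called, all lower in Type 1 (both Anxa2 probes and 1 Anxa4 probe), against 2.19% of all probes called lower and 4.29% called in either direction. Members share the tumours they were measured in and are not replicates of a type.

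**Figure D2:**
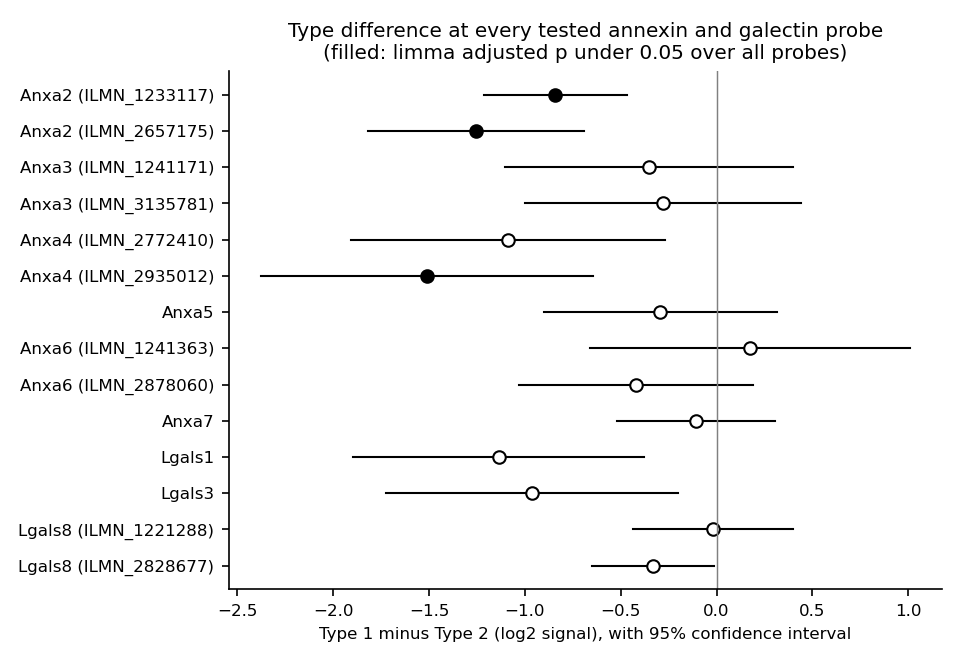
Type 1 minus Type 2 difference in log2 signal (horizontal axis) with its 95% confidence interval at each of the 14 tested probes, filled where the limma adjusted p over all probes was under 0.05. Both Anxa2 probes and 1 Anxa4 probe are filled and lie left of 0, and of all probes only ILMN_1241363 of Anxa6 has a difference above 0.

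In the authors' deposited table, whose log2 values were processed by an unstated method, the same limma fit gave -1.31 ± 0.27 (SE; adjusted p = 0.0176) at the brighter Anxa2 probe and -0.75 ± 0.16 (SE; adjusted p = 0.0214) at the other. The authors' values gave -1.48 ± 0.39 (SE; adjusted p = 0.0456) for the brightest Anxa4 probe, -1.17 ± 0.36 (SE; adjusted p = 0.0811) for Lgals1 and -1.04 ± 0.38 (SE; adjusted p = 0.130) for Lgals3. These lay within 1 SE of the values from the non-normalized signals.

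The type difference was below 0 in both batches for 5 of 9 members (Anxa2, Anxa4, Anxa6, Lgals1 and Lgals3), as it was for 28.3% of all genes. Anxa3 differed by 0.23 in batch 1 and -0.93 in batch 2, Anxa5 by 0.09 and -0.67, and Lgals8 by 0.21 and -0.25, whereas Anxa7 differed by -0.41 and 0.20. In batch 2 every Type 1 tumour lay below every Type 2 tumour for 4 of 9 members (Anxa2, Anxa3, Anxa4 and Anxa5), and the same held for 9.36% of all genes. In batch 1 this held for Lgals1 alone, and for 8.88% of all genes. No member was called in batch 1 alone or batch 2 alone, where 1.41% and 1.04% of genes were.

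A type by batch term was not called for any member (limma, 0 of 9 at adjusted p under 0.05 and 0 of 9 at unadjusted p under 0.05), against 0% and 16.4% of all genes. The widest estimates were -1.16 ± 0.66 (SE; batch 2 minus batch 1 difference; 95% confidence interval -2.58 to 0.26) for Anxa3 and -0.97 ± 0.69 (SE; -2.47 to 0.52) for Lgals3, so batch differences of that size were neither shown nor bounded closely. Between the batches themselves 0 of 9 members were called by limma, with 0 at unadjusted p under 0.05, against 10.7% of all genes. With median scaling, which moved the median batch difference of all genes to -0.39, Anxa3 (-1.07), Anxa5 (-0.75) and Lgals8 (-0.87) were called lower in batch 2, which is 3 of 9 members against 35.5% of all genes called in either direction under that scaling.

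**Figure D3:**
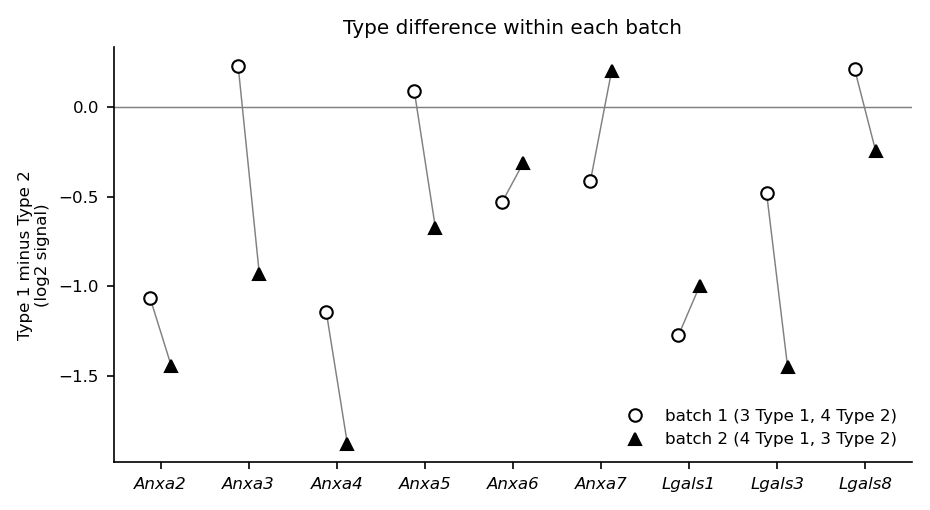
Type 1 minus Type 2 difference in mean log2 signal (vertical axis) of the 9 tested members within batch 1 (open circles) and batch 2 (triangles), joined by a line for each gene. Anxa2, Anxa4, Anxa6, Lgals1 and Lgals3 lie below 0 in both batches, and Anxa3, Anxa5 and Lgals8 lie on either side of it.

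Genes of several other cell types also differed between the types, in both directions. Of 12 tested mural and fibroblast genes, 4 were called lower in Type 1 (Rgs5, Col1a1, Col6a1 and Lum), 0 were called higher and 8 were not called, with a median difference of -1.08. Their mean level lay between 6.50 and 7.24 in Type 1 tumours and between 7.33 and 8.50 in Type 2 tumours, with no overlap. Col1a1, the chain of the main fibroblast collagen, was above background in 0 of the 7 Type 1 and 6 of the 7 Type 2 tumours. Col1a1 and Col6a1 lay just inside the threshold (limma adjusted p = 0.0492 and 0.0483). Of 13 endothelial genes, Tie1 and Vwf were called lower in Type 1 (median -0.70), and the mean level was 7.60 ± 0.33 (SD) over Type 1 tumours and 8.29 ± 0.16 (SD) over Type 2 tumours, again with no overlap. Of 15 astrocyte genes 5 were called higher in Type 1 and 1, S100b, lower (median 1.31). Of 13 oligodendrocyte progenitor genes 3 were called lower in Type 1 (median -0.90). Cspg4 was counted among both these progenitor genes and the mural and fibroblast genes, and so entered the mural and fibroblast covariate used below. All 10 tested neuron genes had a difference above 0 (median 1.14), and 2 of them, Rbfox3 (2.65) and Kcnc1 (2.33), were called higher in Type 1. Marker calls other than that of S100b were not rechecked with tumours left out. The part of these cell types in the annexin differences was not tested beyond the fits given next.

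Within type and batch, Anxa2 followed the mean of the mural and fibroblast genes at Pearson r = 0.77 and Spearman rho = 0.77 (n = 14; exact permutation within type and batch, two-sided, p = 0.0165 and 0.0228). Anxa5 did so at r = 0.81 and rho = 0.85 (exact permutation p = 0.00164 and 0.00598). Over 36 relations of 9 members with 4 marker lists none passed (adjusted p = 0.298 for Anxa2 and 0.0590 for Anxa5). The coefficient for Anxa2 was 0.85 in batch 1 and 0.54 in batch 2, and 0.73 without the 2 tumours farthest from the median of the marker mean. For Anxa5 these were 0.83, 0.70 and 0.81.

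With the mural and fibroblast mean as a covariate the Anxa2 difference was 0.01 ± 0.39 (SE; 95% confidence interval -0.82 to 0.84) and that of Anxa4 -0.06 ± 0.72 (SE; -1.62 to 1.49). Type and batch explained 76.4% of that covariate and 0 of 11786 genes were called beside it (limma; 683 at unadjusted p under 0.05), so type and the level of these genes cannot be told apart in these tumours. With the endothelial mean, 69.9% of which type and batch explained, 0 genes were called either (783 at unadjusted p under 0.05), and Anxa2 differed by -0.63 ± 0.44 (SE) and Anxa4 by -1.36 ± 0.74 (SE).

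Microglia and macrophage genes, whose cells make galectin-3 and several annexins, were not called over both batches. Of 14 tested, 0 were called by limma and 0 had an unadjusted p under 0.05, and their mean level lay between 8.51 and 10.03 in Type 1 tumours and between 8.19 and 9.66 in Type 2 tumours. Their median difference of -0.01 joined opposite shifts, 0.52 in batch 1 and -0.76 in batch 2. In batch 2 the mean level lay between 8.57 and 9.40 in Type 1 tumours and between 9.63 and 9.66 in Type 2 tumours, without overlap. In that batch Anxa2, Anxa3, Anxa4 and Anxa5 did not overlap either, and Lgals3 differed by -1.45. Centred within type, the batch 2 coefficients of these genes with the microglia and macrophage mean were mixed in sign. They were -0.88 for Anxa2, 0.28 for Anxa3, -0.21 for Anxa4, 0.30 for Anxa5 and -0.60 for Lgals3 (Pearson r, given as a description). These batch 2 coefficients come from 4 Type 1 and 3 Type 2 tumours. The marker mean hardly varied among those Type 2 tumours, so they rest mainly on the Type 1 tumours. Over both batches r was -0.29 for Anxa2, 0.55 for Anxa3, 0.35 for Anxa4, 0.55 for Anxa5 and -0.0048 for Lgals3 (n = 14). None of the latter passed after adjustment over the 36 relations. The part of these cells in those within-batch differences was not tested. With that mean as a covariate over both batches Anxa2 differed by -1.26 ± 0.27 (SE; limma adjusted p = 0.0211) and Anxa4 by -1.46 ± 0.39 (SE; limma adjusted p = 0.0419). Lgals1 (-1.12 ± 0.36, SE) and Lgals3 (-0.94 ± 0.36, SE) were again not called.

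**Figure D4:**
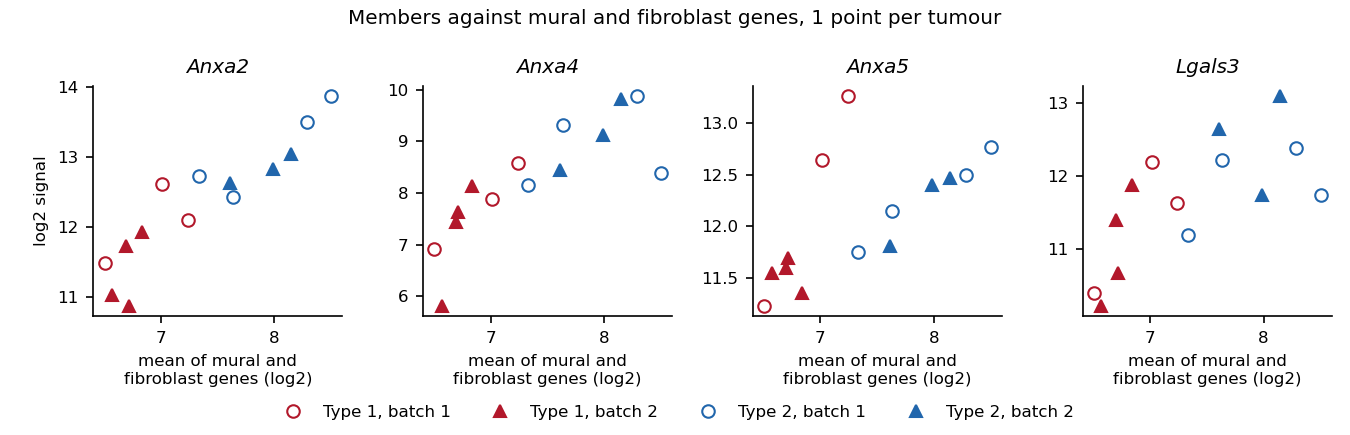
Log2 signal of Anxa2, Anxa4, Anxa5 and Lgals3 (vertical axes) against the mean log2 signal of 12 mural and fibroblast genes (horizontal axes), 1 point per tumour, Type 1 red and Type 2 blue. The marker mean does not overlap between the types, and Anxa2 is higher in tumours where it is higher, at r = 0.77 within type and batch.

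The members varied among themselves within type and batch. Values were centred within each type and batch and correlated over the 14 tumours, with 36 pairs and exact permutation of the tumours within type and batch (two-sided). No pair passed after adjustment (lowest adjusted p = 0.198; by Spearman 0.203), and 9 pairs had an unadjusted p under 0.05. Anxa4 and Lgals3 had the highest coefficient, at r = 0.74 and rho = 0.77 (exact permutation p = 0.0123 and 0.00714), with 0.81 in batch 1, 0.67 in batch 2 and 0.53 without the 2 tumours farthest from the median of Anxa4. Anxa5 and Lgals1 stood at r = 0.73 and rho = 0.67 (exact permutation p = 0.0214 and 0.0360), with 0.84 in batch 1, 0.63 in batch 2 and 0.40 without the 2 farthest tumours. Anxa3 and Anxa5 stood at r = 0.70 and rho = 0.64 (exact permutation p = 0.0350 and 0.0647), with 0.71, 0.70 and 0.82. The lowest coefficient was that of Anxa4 and Lgals8, at r = -0.63 and rho = -0.60 (exact permutation p = 0.0388 and 0.0451), with -0.69, -0.59 and -0.54. Lgals8 was taken here at its brightest probe, which its other tested probe followed at only r = 0.34. Correlations of members with that other probe were not examined.

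**Figure D5:**
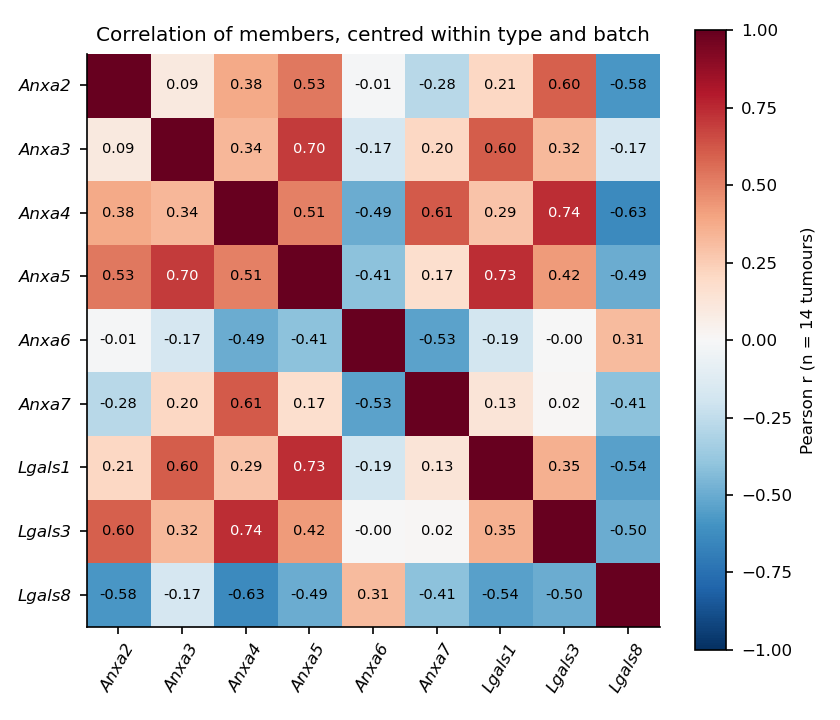
Pearson correlation (colour and printed value) of each pair of the 9 tested members over 14 tumours, after centring within type and batch. Of 36 pairs 21 are positive, and Lgals8, at its brightest probe, is negative with all of the others but Anxa6.

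Of the other annexins and galectins 8 genes were tested, 0 were called (limma; 3 at unadjusted p under 0.05) and the median difference was -0.47. Anxa11, which encodes annexin A11, was at 7.63 ± 0.59 (SD) in the 7 Type 1 tumours and 8.63 ± 0.71 (SD) in the 7 Type 2 tumours, which differed by -1.01 ± 0.34 (SE; limma adjusted p = 0.0985). Lgals4 differed by -0.98 ± 0.30 (SE; limma adjusted p = 0.0735), although its near-identical mouse copy Lgals6 may share its probe, and Lgals7, above background in 1 of the 7 Type 1 and 4 of the 7 Type 2 tumours, by -1.12 ± 0.40 (SE; limma adjusted p = 0.124). Lgals3bp, which encodes a secreted glycoprotein bound by galectin-3, was at 10.99 ± 1.10 (SD) in the 7 Type 1 tumours and 11.08 ± 0.60 (SD) in the 7 Type 2 tumours (-0.08 ± 0.45, SE; limma adjusted p = 0.940).

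Of 13 tested annexin partners, S100b alone was called, lower in Type 1, and 12 were not called, with a median of -0.24. S100a10, the binding partner of annexin A2, was at 8.88 ± 0.96 (SD) in the 7 Type 1 tumours and 9.10 ± 0.65 (SD) in the 7 Type 2 tumours, and its difference of -0.39 ± 0.28 (SE; 95% confidence interval -0.99 to 0.22; limma adjusted p = 0.461) was not called. S100b encodes a glial calcium-binding protein, listed here for its contact with annexin A6. It differed by -1.48 ± 0.34 (SE; limma adjusted p = 0.0282) and was above background in 3 of the 7 Type 1 and all 7 Type 2 tumours, and leaving out any 1 of 7 of the 14 tumours ended its call (adjusted p up to 0.0608). The S100b call was also lost without the pair high in choroid plexus genes (-1.43, adjusted p = 0.110), without the batch term (-1.23, adjusted p = 0.222) and in batch 1 or batch 2 alone (-1.10 and -1.85, adjusted p = 0.0771 and 0.139), as it was with the mural and fibroblast or the endothelial covariate. Fpr2, a receptor of annexin A1, differed by 0.46 ± 0.49 (SE; limma adjusted p = 0.637).

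Of 15 tested galectin ligands and glycan branching enzymes, Mcam alone was called and 14 were not, with a median of -0.25. Mcam, an adhesion molecule of vessels and nerve sheath cells, was at 7.78 ± 0.64 (SD) in the 7 Type 1 tumours and 10.82 ± 0.69 (SD) in the 7 Type 2 tumours, which differed by -3.09 ± 0.33 (SE; limma adjusted p = 0.000636). The hyaluronan receptor gene Cd44 (-1.08 ± 0.36, SE; limma adjusted p = 0.0988), the integrin subunit gene Itgb1 (-0.66 ± 0.19, SE; limma adjusted p = 0.0602) and the sialyltransferase gene St6gal1 (-0.81 ± 0.25, SE; limma adjusted p = 0.0726) were not called. Mgat5, whose product makes the branched glycans that galectin-3 prefers, differed by 0.59 ± 0.33 (SE; limma adjusted p = 0.322).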

How the data were processed

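Total RNA of 14 mouse tumours was measured on single-colour Illumina bead arrays labelled with biotin. Per the file headers, the authors deposited, for each of 45281 probes, an average signal intensity without normalization and a detection p-value. The submitters' processing notes list BeadStudio. A second deposited table held log2 values for 38502 probes, made by a method not given in the sources used here. Over 4544 bright probes its deviations from batch means correlated with those of log2 signal at r between 0.991 and 0.998 for the same array and at most 0.309 for another, so direction and scale (median slope 1.09) followed log2 signal. Array medians lay between 2.67 and 2.69, and the centring of each probe stays unknown.

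Signals were background-corrected (normexp from detection p-values, offset 16), quantile-normalized and logged by the neqc function (limma 3.58.1; R 4.3.3). One symbol was annotated to 32034 probes, several to 16 and none to 13231. Symbols were updated through Entrez identifiers (GRCm38.p6), which matched 31976 probes. Probes detected at p under 0.05 on at least 3 arrays (18430) were kept, and the brightest stood for its gene (11786 genes). Types were compared by lmFit and eBayes on type and batch, adjusting p over all genes (Benjamini-Hochberg). On simulated data with 200 of 11786 genes changed between types, 58% of changes of 1 and 93% of changes of 2 on the log2 scale were recovered, with 2 false calls.

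The members, gene lists, tests and alternatives were chosen with earlier results of these data known, and the correlations with marker lists were added after these values were seen. The genes named are the 10 members, every called gene of 3 lists (other annexins and galectins, annexin partners, galectin ligands and glycan branching enzymes), S100a10 and Lgals3bp, and the 5 genes most like each called member. Anxa11, Lgals4, Lgals7, Fpr2, Cd44, Itgb1, St6gal1 and Mgat5, and the marker genes Rgs5, Cspg4, Col1a1, Col6a1, Lum, Tie1, Vwf, Rbfox3, Kcnc1, Gfap, Olig2 and Sox10, were named after their values were seen. Replicate numbers follow accession order and pair nothing. The labels speak of separate tumours only, so the spread behind each p-value is that among these 14 samples, and the number of arrays limits the precision. Promoter windows matched 7 of 10 members. Part of the genotype is not reported here.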

Additional observations from a re-analysis of the deposited data

Results flagged for a closer look

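One of 18 groups of 7 tumours (9 members in 2 types) held a tumour far from the others, about what chance gives, since the threshold marks about 1 group in 20. Anxa6 was at 10.08 in Type 2 replicate 6, and its gap to the nearest Type 2 tumour was 0.641 of the whole range of that type, above the critical value of 0.568. The other 6 Type 2 tumours lay between 11.21 and 11.84.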

How the results depend on the processing

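Of 9 tested members 2 were called, and leaving out each tumour in turn gave 0 to 2 (0 without Type 1 replicate 2). Over probes 3 were called, and leaving out each tumour gave 0 to 4. The count of members was 1 (Anxa2) with chip as a random block, no background correction, no detection filter, the mean of detected probes, a robust trended prior, and without the pair of tumours high in choroid plexus genes. It was 0 in batch 1 alone, in batch 2 alone, and with the mural and fibroblast or the endothelial covariate, and the count of probes was 0 with each of these covariates. Batch called 3 of 9 members with median scaling, near the 35.5% of all genes called there, against 0 of 9. Anxa2 kept its call in 13 of 17 other settings, and Anxa4 in 7 of 17. Lgals1 and Lgals3 passed in none.

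Signs turned as follows. In batch 1 alone Anxa3 (0.23), Anxa5 (0.089), Lgals8 (0.21) and Lgals3bp (0.80) were positive, and in batch 2 alone Anxa7 (0.20). With the mural and fibroblast covariate Anxa2 (0.012), Anxa3 (0.75), Anxa5 (1.13), Lgals3 (0.13), S100a10 (0.33) and Lgals3bp (0.23) were positive. With the endothelial covariate Anxa3 (0.30) and Anxa5 (0.21) were positive. The SE beside the mural and fibroblast covariate was 0.39 for Anxa2, 0.65 for Anxa3, 0.39 for Anxa5 and 0.67 for Lgals3. Beside the endothelial covariate it was 0.61 for Anxa3 and 0.49 for Anxa5. No gene was called beside either covariate. Lgals8 was positive with array weights (0.049) and without the choroid plexus pair (0.095), and Lgals3bp with the microglia and macrophage covariate (0.011) and without that pair (0.088). Leaving out 1 tumour turned Anxa7 once (range -0.22 to 0.022), Lgals8 5 times (-0.11 to 0.10) and Lgals3bp 4 times (-0.43 to 0.20). The cause of these changes was not tested.

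The number of genes called between types was 547 and ranged from 0 to 774 over the settings and from 195 to 639 with each tumour left out. The interaction called 0 of the 9 members, and the correlations 0 of their pairs, in every setting run. Over all genes the interaction called 0, but 2603 with chip as a random block, 0 to 24 in the other settings, and 0 to 36 with each tumour left out (36 without Type 1 replicate 2). No paired analysis was possible because replicate numbers were given in accession order and the labels pair no tumours. Mcam kept its call in all but the mural and fibroblast and the endothelial covariate fits. Probes near background (Anxa1, Anxa7 and the dimmer probes of Anxa2, Anxa4 and Anxa6) limit what can be said of those members.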

Other observations

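The genes whose levels over the 14 tumours were most like Anxa2, after centring within type and batch, were Cnr1 (r = 0.88), Scamp3 (0.86), Acot9 (0.85), Psmd12 (0.84) and Ppm1j (0.83). None of these was called between the types, and their differences lay between -0.34 and 0.11. For Anxa4 they were Aifm1 (0.90), Xlr5c (0.85), Ppic (0.85), Tm2d2 (0.84) and Timm8a1 (0.83), with differences between -0.33 and 0.33, and none was called. These are the highest coefficients over all genes tested, given as likeness only.

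Among the 7 members with a promoter window, GC boxes were found for Anxa2, Anxa7 and Lgals3, TATA letters for Anxa1 and Anxa2, TEAD letters for Anxa1 and STAT letters for none. AP-1 letters were found for Anxa2 alone of these, and NF-kappaB letters for Anxa4 alone. The Anxa2 window was 62.4% G and C and the Anxa4 window shown 64.8%, against a median of 52.4% over all windows. The second Anxa4 window was 42%. Windows of the other members were 66% (Lgals3), 62% and 42.4% (Anxa7), 58.8% (Anxa5), 49.2% (Lgals8) and 46% (Anxa1).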
